A study of Zea mays with 4 samples.

Results

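The sugar transporter genes sweet4a (GRMZM2G000812), sweet4b (GRMZM2G144581), sweet4c (GRMZM2G137954) and sut1 (GRMZM2G034302) were taken from the deposited tables by their gene model identifiers, as 4 of 110028 gene models. The libraries hold RNA of the central starchy endosperm, the starch-storing core of the maize kernel, from the inbred B73 at 6 days after pollination (DAP). Plants were self-pollinated in a greenhouse, tissue was cut from kernel sections by laser-capture microdissection, and RNA was treated with DNase and amplified. The labels give 1 group of 4 replicates, sequenced in 1 lane, with no mutant, treatment or second tissue, and do not say whether replicates came from separate plants or kernels. The spread between libraries may therefore be technical.

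SWEET proteins let sugars pass a membrane along their gradient, and SUT proteins carry sucrose into cells together with protons. In maize, SWEET4c is known as a hexose transporter of the basal endosperm transfer layer (BETL), the cell layer through which sugars enter the kernel, and SUT1 is best known for loading sucrose into the leaf phloem. Between these carriers stand cell wall invertases such as Miniature1 (mn1), which split sucrose into hexoses outside the cells. In the annotation of the B73 assembly Zm-B73-REFERENCE-NAM-5.0 the SWEET4 genes lie near each other, with 4 annotated genes between sweet4a and sweet4c and 1 between sweet4c and sweet4b.

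All of these transporter genes were at or near the limit of detection. Together they had 25 reads out of 19093384 reads assigned to gene models, of which 18 belonged to sut1, 6 to sweet4c, 1 to sweet4a and 0 to sweet4b. Library depth was between 3432952 and 5477465 reads. Levels are given in reads per 1000000 reads on gene models (RPM), and 3 reads in a single library correspond to between 0.548 and 0.874 RPM. None of the 4 genes averaged 1 RPM or more, a level that 19.3% of all gene models reached. The exact 95% Poisson intervals and the chi-square and multinomial tests below set differences against counting error alone. The RNA was amplified and no molecular identifiers separate copies of 1 molecule. These intervals may therefore be too narrow and these p-values too small.

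**Figure D1:**
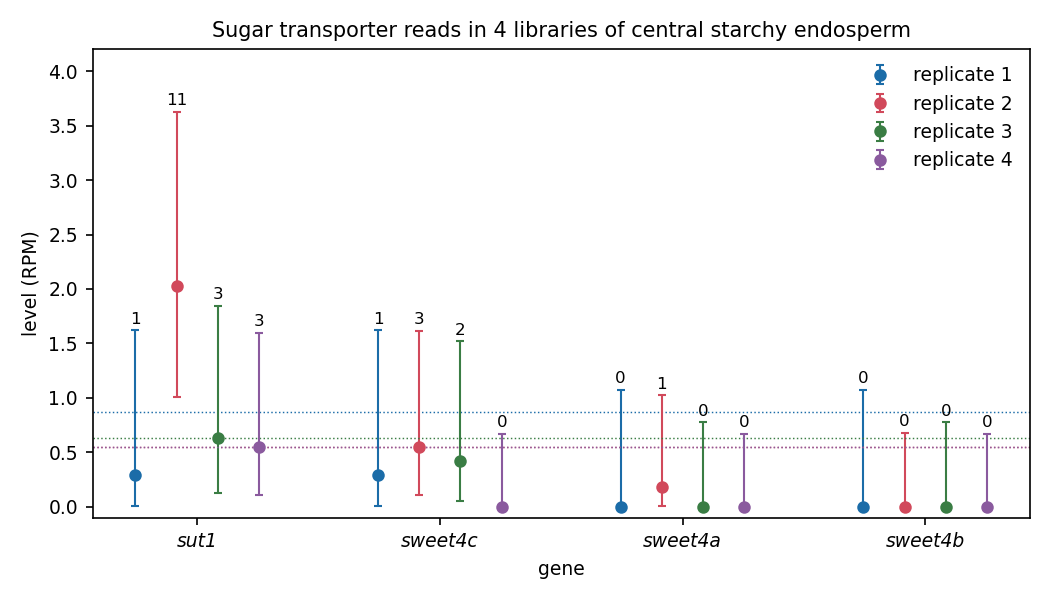
Level in RPM (vertical axis) of sut1, sweet4c, sweet4a and sweet4b in each of the 4 libraries, with exact 95% Poisson intervals as bars and the number of reads printed above each bar. The dotted lines mark the level of 3 reads in the library of the same colour. Only sut1 in replicate 2, with 11 reads, stands clearly above those lines.

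The sucrose carrier gene sut1 had the most reads, with 1, 11, 3 and 3 in replicates 1 to 4. These gave levels of 0.291, 2.03, 0.631 and 0.548 RPM. Replicate 2 was high and the other libraries lay at 3 reads or below. The mean was 0.874 ± 0.782 RPM (SD, n = 4), and over all libraries together the level was 0.943 RPM, with an interval of 0.559 to 1.49 RPM. Without replicate 2 the mean was 0.490 RPM, so that library carries much of the level. Of all gene models, 19.7% had a higher mean than sut1. Among the 37643 models with at least 1 read, 42.3% had a lower mean.

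The hexose carrier gene sweet4c had 1, 3, 2 and 0 reads in replicates 1 to 4, or 0.291, 0.553, 0.421 and 0 RPM. It was present in replicates 1 to 3 at 3 reads or fewer, and replicate 4 had none. Its mean was 0.316 ± 0.236 RPM (SD, n = 4), and the pooled level was 0.314 RPM, with an interval of 0.115 to 0.684 RPM. Of all gene models, 23.7% had a higher mean, and 30.6% of the 37643 models with at least 1 read had a lower one.

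Of its neighbouring paralogs, sweet4a had a single read, in replicate 2, at 0.184 RPM. Its pooled level was 0.0524 RPM, with an interval of 0.00133 to 0.292 RPM. The gene sweet4b had 0 of 19093384 reads, which allows a level of up to 0.157 RPM, the level of 3 reads, or 0.193 RPM as the upper end of the exact Poisson interval. It shares this with 65.8% of gene models, which were also at 0 in all 4 libraries. Summed over the SWEET4 genes, the level was 0.291, 0.737, 0.421 and 0 RPM in replicates 1 to 4. How the authors counted reads that match more than 1 paralog is not given in the sources used here, so the split among SWEET4 genes is uncertain while a read dropped for several matches would be missing from the sum too.

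The order of the levels was sut1, sweet4c, sweet4a and sweet4b, as shares of reads. No transcript lengths were given, so a longer transcript would yield more reads at equal abundance, and the comparisons between genes below are of read shares and not of molecules. On pooled reads, sut1 stood at 3.0 times sweet4c, with an exact 95% counting interval of 1.14 to 9.23, and at 18 times sweet4a, with an interval of 2.84 to 750.0. Against the 0 reads of sweet4b, its 18 reads were 6 times a floor of 3 reads over all libraries. Without replicate 2, sut1 had 7 reads against 0 of both sweet4a and sweet4b, 2.33 times that floor. Both ratios to the floor leave out the counting error of the sut1 reads, so they are no lower bounds. Its 7 reads were then 2.33 times the 3 reads of sweet4c, without a counting interval. The interval above includes the 11 reads of sut1 in replicate 2. Whether sut1 exceeded sweet4c beyond counting error without that library was not tested. The ratio of sweet4c to sweet4a was 6.0, with an interval of 0.728 to 276, which includes equal levels. Neither sweet4a nor sweet4b exceeded 3 reads, so no ratio is given between them.

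The same pairs were compared within libraries, where 4 libraries limit an exact two-sided sign-flip permutation test to a smallest p of 0.125, so no pair could pass 0.05. On log2(RPM + 0.5), the mean within-library difference of sut1 minus sweet4c was 0.66 ± 0.60 (SD, n = 4), with sut1 higher in 3 of 4 libraries and equal in replicate 1 (exact permutation p = 0.25, adjusted p = 0.30 over 6 pairs). It was higher than sweet4a by 1.20 ± 0.51 and than sweet4b by 1.31 ± 0.72, with that order in 4 of 4 libraries for both pairs (p = 0.125 by the same exact permutation test, adjusted p = 0.30). The pseudocount compresses and partly sets these sizes, since reads are at or near 0. For sweet4c the differences were 0.54 ± 0.38 to sweet4a and 0.65 ± 0.47 to sweet4b, above 0 in 3 of 4 libraries for both pairs (p = 0.25 by the exact permutation test, adjusted p = 0.30). The difference of sweet4a minus sweet4b was 0.11 ± 0.23, above 0 in 1 library (p = 1.0 by the exact permutation test).

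Between libraries, the chi-square test of read counts against library size did not call any of the transporter genes. The filter on low counts removed all 4 of them, in a test that called 44.1% of the 16516 gene models it kept. Without the filter, 0 of the 3 genes with reads passed an adjusted p of 0.05, against 20.6% of 37643 gene models. Among these, sut1 had an unadjusted chi-square p of 0.0297 and an adjusted p of 0.114 over all models, sweet4c an adjusted p of 0.617 and sweet4a of 0.619. Expected reads per library were at most 5.30 for sut1 and 1.77 for sweet4c, too few for the chi-square approximation, and an exact multinomial test gave unadjusted p = 0.0518 for sut1 and 0.415 for sweet4c. The mix of sut1 and sweet4c reads also did not differ detectably between libraries (exact Freeman-Halton p = 0.503, adjusted p = 1.0 over 3 pairs with reads for both genes). With 0 to 3 reads of sweet4c per library, differences between libraries were not detectable at this depth.

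**Figure D2:**
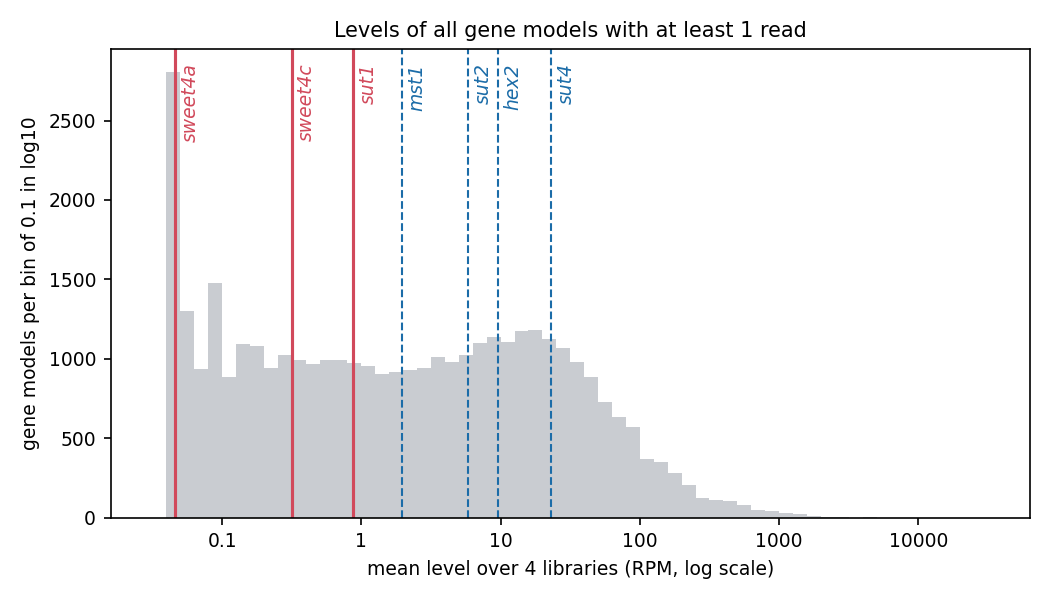
Number of gene models (vertical axis) by mean level over the 4 libraries in RPM on a log scale, for the 37643 models with at least 1 read. Solid lines mark sut1, sweet4c and sweet4a, all below 1 RPM, and dashed lines mark mst1, sut2, hex2 and sut4, which lie between 1.95 and 23.2 RPM. The genes sweet4b and mst2/mst3 had no read and are not drawn.

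Other sugar transporter genes reached higher levels in the same libraries. A search by name in the reference gene table found 5 further models, of which 4 averaged 1 RPM or more, beside the 19.3% of all gene models given above. One of them, hex2, is named for a hexokinase and is no transporter, which leaves 3 of 4. The table gives SWEET names to no model, so other SWEET genes were not analysed here.

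The sucrose transporter gene sut4 had 25.1, 25.2, 24.4 and 18.1 RPM in replicates 1 to 4, a mean of 23.2 ± 3.43 RPM (SD, n = 4). In reads this was 86, 137, 116 and 99, so sut4 was far above the floor in every library, with replicate 4 lowest. Compared within libraries, sut1 lay below sut4 by a mean log2 difference of -4.24 ± 0.69, in 4 of 4 libraries (exact two-sided sign-flip permutation p = 0.125, adjusted p = 0.125 over 3 added comparisons). In pooled reads sut1 had 18 and sut4 had 438, a ratio of sut4 to sut1 of 24.3, with a counting interval of 15.2 to 41.4. Without replicate 2 the reads were 7 of sut1 and 301 of sut4, a ratio of 43.0, with an interval of 20.6 to 108.

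The gene sut2, known in maize for a carrier that moves sucrose out of the vacuole, had 8.45, 5.16, 5.89 and 3.83 RPM, a mean of 5.83 ± 1.94 RPM (SD, n = 4). All 4 of its values lay above the highest value of sut1. The log2 difference of sut1 minus sut2 was -2.30 ± 0.97, below 0 in 4 of 4 libraries (p = 0.125 by the exact permutation test, adjusted p = 0.125). Among sut1, sut2 and sut4, the sucrose transporter genes with a name in the table, sut1 had the lowest share of reads in each library.

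Among genes named for monosaccharide transporters, mst1 had 2.04, 2.58, 2.10 and 1.10 RPM, a mean of 1.95 ± 0.621 RPM (SD, n = 4), and the model named mst2 and mst3 was at 0 in all 4 libraries. The log2 difference of sweet4c minus mst1 was -1.60 ± 0.09, below 0 in 4 of 4 libraries (p = 0.125 by the exact permutation test, adjusted p = 0.125). The small SD partly reflects the pseudocount, since sweet4c rests on 6 reads in all, against 37 of mst1. For sut2, sut4, mst1 and hex2 the chi-square test without the filter gave adjusted p from 0.205 to 0.619 between libraries.

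Cell wall invertases supply hexoses to carriers such as SWEET4c. Of the 3 invertase genes listed here, mn1, incw1 and incw3, only mn1 averaged 1 RPM or more. The BETL invertase gene mn1 had 2, 16, 21 and 2 reads in replicates 1 to 4, or 0.583, 2.95, 4.42 and 0.365 RPM. It was high in replicates 2 and 3 and under 3 reads in replicates 1 and 4. Its mean was 2.08 ± 1.95 RPM (SD, n = 4), and 1.30 RPM without replicate 3. It differed between libraries beyond counting error (chi-square adjusted p = 0.000283 without the filter), but not without replicate 4 (chi-square adjusted p = 0.0622). Its relative incw1 had 2, 0, 1 and 1 reads, or 0.583, 0, 0.210 and 0.183 RPM, and incw3 had none.

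Markers of the BETL are given here because sweet4c and mn1 are known from that layer. Of the 12 matched markers, 11 differed between libraries beyond counting error without the filter, against the 20.6% of gene models given above. That share includes models with a single read, and among the models kept by the filter it was 44.1%. In RPM, 11 were lowest in replicate 4, but the share of all gene models lowest there was not computed. Among these, mn1 had 2 reads in both replicate 1 and replicate 4. All 12, mn1 included, summed to 326, 688, 589 and 64.3 RPM in replicates 1 to 4. Each averaged 1 RPM or more, and 3 of them were at 0 in replicate 4 but at 0 in no other library. The marker betl2, which the table also lists as bap2, gave the largest part of the sum in replicates 1 to 3, with 191, 436, 329 and 27.2 RPM in replicates 1 to 4. The endosperm marker ebe1 went against the rest, with 26.2, 22.1, 25.9 and 27.2 RPM, and was level with betl2 in replicate 4 at 149 reads each (chi-square adjusted p = 0.296 for ebe1). Without ebe1 the other 11 markers summed to 299.7, 666, 563 and 37.1 RPM. In replicates 1 to 3 sweet4c amounted to 0.0894%, 0.0803% and 0.0714% of the marker sum, from only 1, 3 and 2 reads. The share of sut1 was 0.0894%, 0.294% and 0.107%, from 1, 11 and 3 reads. In replicate 4 sut1 amounted to 0.852%, from 3 reads. At the ratios of reads to marker reads in replicates 1 to 3, replicate 4 would hold 0.276 reads of sweet4c and 0.690 reads of sut1, against 0 and 3 observed. With so few reads expected, these values bear on neither gene. The part of BETL tissue in the levels of sweet4c and sut1 was not tested. In tissue samples, fewer cells of a type and less RNA per cell cannot be told apart.

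**Figure D3:**
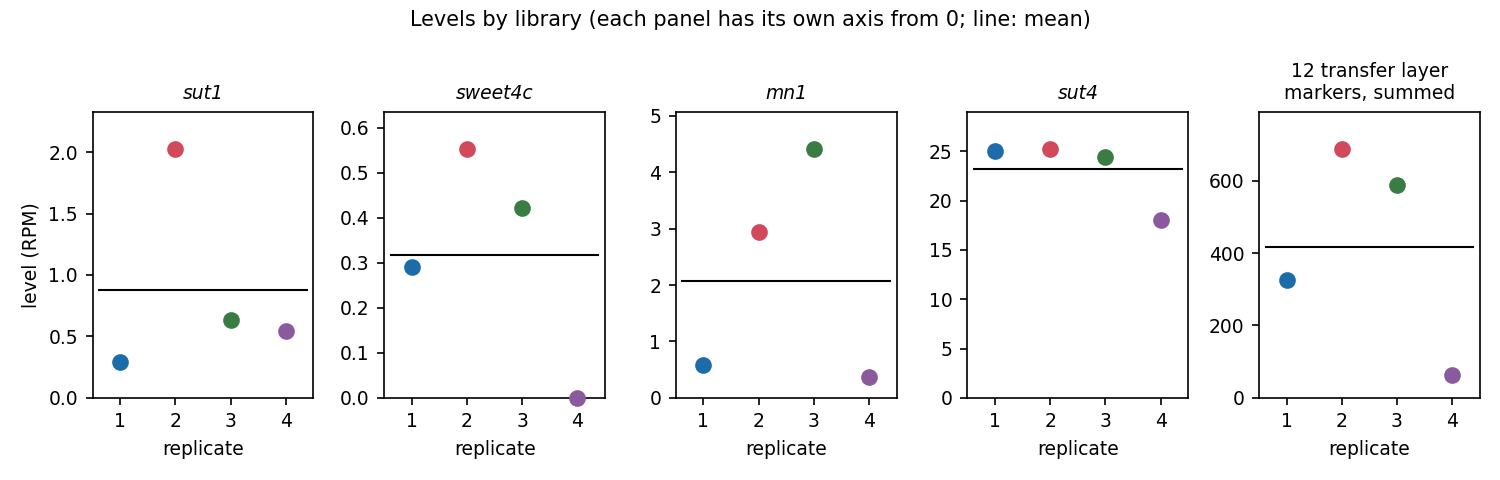
Levels in RPM (vertical axes, each from 0 with its own scale) in replicates 1 to 4 of sut1, sweet4c, the invertase gene mn1, the sucrose transporter gene sut4 and the summed 12 BETL markers, with lines at the means. Replicate 4 is lowest for sweet4c, mn1, sut4 and the marker sum but not for sut1. The high value of sut1 is in replicate 2 and its lowest is in replicate 1. In replicate 4 sweet4c had 0 reads, sut1 3 and mn1 2, and mn1 also had 2 in replicate 1. The chi-square test without the filter did not call sweet4c, sut1 or sut4 between libraries.

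Markers of other kernel parts were set beside the tissue label. Of 7 matched markers of the starchy endosperm, 2 averaged 1 RPM or more, led by the transcription factor gene fl3 at 2092 RPM, while wx1 and o2 were at 0 in all libraries. The other, the zein gene gz27, had 0.583, 0.184, 0.631 and 3.83 RPM, and without replicate 4 it averaged 0.466 RPM, so that 1 of the 7 reached 1 RPM. The 3 markers of the embryo-surrounding region summed to 29.4, 33.9, 22.9 and 1.64 RPM in replicates 1 to 4, so they too were low in replicate 4. The 6 aleurone markers summed to between 109 and 135 RPM, all of it from vpp1, dek1, cr4 and sal1, with c1 and r1 at 0 in all libraries. The 5 embryo markers summed to 25.3, 26.2, 31.5 and 45.5 RPM, highest in replicate 4. Nearly all of that sum came from ole1 and wox2a, since wox5b and glb2 were at 0 in all libraries and kn1 had 1 read. The 5 markers of maternal and green tissue were led by ppdk1 at 918 RPM, a gene also transcribed in endosperm, with the other 4 averaging under 1 RPM.

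The library pattern of sut1, its high level in replicate 2 beside a low one in replicate 1, had few near matches. Among 7595 gene models with an entry in the reference table and a mean of 10 RPM or more, the nearest in centred log2(RPM + 0.5) over the 4 libraries was bip2, a chaperone gene of the endoplasmic reticulum, at a Euclidean distance of 0.476. The median distance was 1.27 and no other model lay within 0.5. The gene bip2 had 9.32, 25.1, 17.7 and 13.3 RPM in replicates 1 to 4. Next came LOC100191739 at a distance of 0.577, LOC100273257 at 0.599, LOC100383160 at 0.628 and LOC100276303 at 0.635. For sweet4c the 5 nearest were LOC100278395, LOC100191811, LOC100382040, LOC100383871 and LOC100283656, at distances of 0.0291 to 0.0794, but 1040 models lay within 0.5 of it. The pseudocount of 0.5 RPM exceeds the sweet4c mean of 0.316 RPM. It flattens the profiles of sweet4c and sut1 far more than those of models at 10 RPM or more. It therefore partly sets these distances and the number of models within 0.5. With 6 reads of sweet4c and 18 of sut1, these distances describe the counts of these libraries and cannot rank genes beyond counting error. The profiles of sweet4a and sweet4b rest on 1 and 0 reads, so their nearest models are not named.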

How the data were processed

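The authors deposited a scaled signal per gene model for each library, and the submitters' processing notes name bedtools. Aligner, build, annotation and strandedness are not stated in the sources at hand. Every library summed to 4773346, and its values were whole multiples of its smallest value above 0 (tolerance 0.01 of a read, 100% of values), which gave back reads, and RPM was computed from them. In replicate 3, 1 read was worth 1.0039 units, close to 1, and its values lay within 3.1e-05 of a read of whole multiples of that step. Tests were also repeated without it. The RefSeq table of the assembly Zm-B73-REFERENCE-NAM-5.0 paired 18786 of 110028 models with names, and its coordinates served only for gene order. Of 50 marker and invertase symbols, 40 were used, and mrp1 was left out because its model carries an unrelated name. Transcript lengths and sequences were not at hand, so the planned division by coding length, protein identities and promoter motifs were not run.

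Gene pairs were compared by exact sign-flip permutation. Libraries were compared by chi-square on reads against TMM sizes from edgeR 4.0.16, after its filter on low counts, with Benjamini-Hochberg adjustment over all models. The procedure was tried on simulated reads with counting error only, against library totals, for models that passed the filter. That trial covers neither amplified RNA nor the 4 transporter genes, which the filter removed. Alternatives used DESeq2 1.42.0 size factors, library totals, other pseudocounts, no filter and each replicate left out. Python 3.11.15 and SciPy 1.17.1 were used. Genes named are the 4 transporters, name-matched sugar transporters, cell wall invertases, BETL markers and the 5 nearest models per gene. Members, lists and tests were chosen with earlier results of these data known. The exact multinomial test, the list without hex2, the gene order and the comparisons with sut4, sut2 and mst1 were added after the values were seen.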

Additional observations from a re-analysis of the deposited data

Results flagged for a closer look

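In 2 of 15 sets of 4 library values, 1 library lay far from the others relative to the range. Chance flags about 1 in 20 sets of measured values, a rate that does not hold for counts near 0. The level of sweet4a was 0.184 RPM in replicate 2 and 0 in the other libraries, which is a single read, and a single read always stands apart in this way. The level of sut4 was 18.1 RPM in replicate 4, against 24.4 to 25.2 RPM in the other libraries, with an adjusted chi-square p of 0.314 between libraries among the models that passed the filter on low counts.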

How the results depend on the processing

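No paired analysis was possible because the labels give only 1 group. Of 119 alternative values, 113 kept their direction and side of the threshold or moved by less than the spread. Part of this tally was fixed in advance and is no measure of robustness. The gene sweet4b had no reads to rescale, and the filter on low counts removed all transporter genes from each test that used it. Within libraries, the sign-flip p of a gene pair could not pass the threshold, so only the direction could change. The 113 also include the fall of the sut1 mean to 0.490 RPM without replicate 2. Leaving out a replicate moved the mean of sut1 between 0.490 and 1.07 RPM, of sweet4c between 0.237 and 0.422 RPM and of sweet4a between 0 and 0.0614 RPM. The count of all models called between libraries was 7289, and 2965 to 6863 with 1 replicate left out, lowest without replicate 4, while 0 of the 4 transporter genes were called, since the filter removed them under each of these settings, and without the filter 0 of 3 were called. At 10 RPM in place of 1 RPM, 1 of the 5 further sugar genes, sut4, counted as detected in place of 4. With a minimum of 50 RPM in place of 10 RPM for nearest models, 0 of the 5 models of sut1 and 1 of 5 for sweet4c, sweet4a and sweet4b stayed on the list, in part because lower models were no longer candidates. Depth limits all results here: 1 read is worth 0.183 to 0.291 RPM.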
